A study of Gallus gallus with 4 samples.

Results

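The regions described here are the HIF1α peaks that lay more than 1000 bp and up to 3000 bp from the nearest transcription start site (TSS) on a chicken autosome. They numbered 554, or 6.81% of the 8133 autosomal peaks in a list of 8375, and were selected by a rule on distance and chromosome alone. They are set against the 514 autosomal peaks at 0 to 1000 bp from a TSS and the 7065 beyond 3000 bp. HIF1α was mapped by CUT&RUN, in which an antibody tethers a nuclease to a DNA-bound protein in intact cells and the short fragments released are sequenced. The 2 HIF1α libraries and the 2 libraries with a control immunoglobulin (IgG) all came from primary lens cells of White Leghorn chick embryos at day 10, kept for 4 h in 1 mM dimethyloxalylglycine (DMOG). Each pool of cells was divided between both antibodies, and the libraries of an antibody were pooled before peaks were called, so that a peak has 1 value and no replicate error. No cells without DMOG were included.

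HIF1α is the oxygen-regulated subunit of hypoxia-inducible factor. Prolyl hydroxylases mark it for degradation in oxygen, DMOG inhibits them, and the stabilized protein binds hypoxia response elements in promoters and enhancers of genes for glycolysis, oxygen sensing and other adaptations. The lens has no blood vessels and lies in a low-oxygen environment. Regions a little outside the core promoter can hold upstream promoter elements, first introns or nearby enhancers. The distances carry no sign, so it is not known whether these peaks lay upstream of the start site or within the gene.

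Over the 1 to 3 kb span the peaks were spread almost evenly, with a slight excess near the TSS. The bins of 250 bp from 1000 bp outward held 80, 81, 77, 72, 65, 54, 62 and 63 peaks. Of the 554 peaks, 310 lay at 1 to 2 kb and 244 at 2 to 3 kb. For comparison, the first 250 bp from a TSS held 239 autosomal peaks, 79 of which covered the TSS itself, and the bins from 500 to 1000 bp held 71 and 87. Counts per bin were thus highest within the first 500 bp, and the 1 to 3 kb peaks lay on the flatter stretch outside it.

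**Figure D1:**
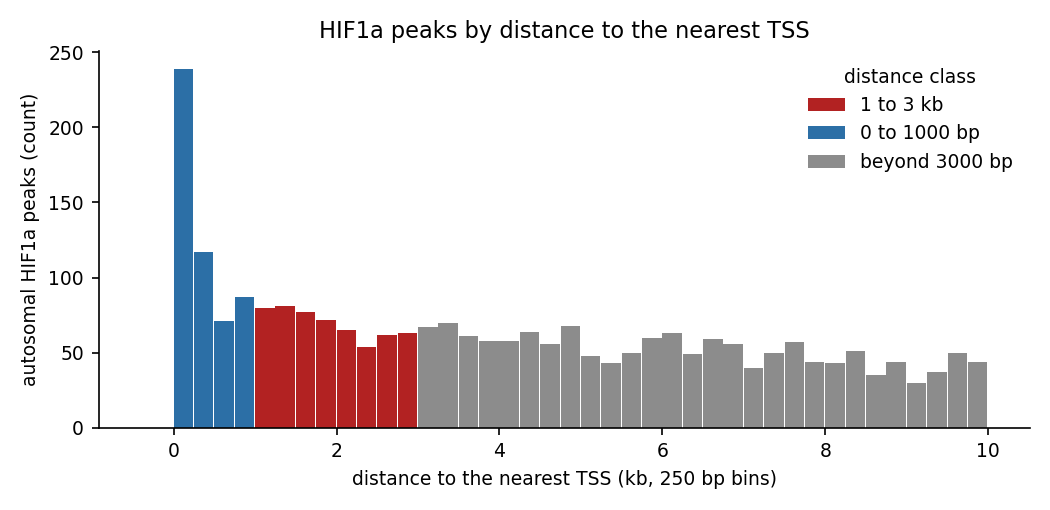
Autosomal HIF1α peaks (count, vertical axis) by distance to the nearest TSS (kb, bins of 250 bp, horizontal axis), with the 1 to 3 kb peaks in red. The 8 red bins hold between 54 and 81 peaks each, whereas the first bin holds 239.

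Peaks on either side of the limits had overlapping pileups. The closest peak inside it, 1002 bp from the TSS of PFKFB3, had a pileup of 17 fragments, where the pileup counts the HIF1α fragments that cover a peak's summit. The next were 1012 bp from RF02271 with 8 fragments and 1013 bp from RBM11 with 56. The RBM11 peak stood over an IgG background of 20.9 fragments, whereas the other peaks named here had a background of at most 2.08. Just outside, at 996, 996 and 994 bp, the peaks of ANKDD1A, BCHE and NSRP1;EFCAB5 had 9, 8 and 10 fragments. At the far limit, the peaks of FMN1, USP33 and SLC19A2 at 2998, 2989 and 2985 bp had 7, 11 and 7 fragments. Those of LMCD1, ENSGALG00000053332 and MTFR2, at 3001, 3006 and 3021 bp, had 8, 9 and 7.

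Most of the 1 to 3 kb peaks were small, like most autosomal peaks. Their median pileup was 9 fragments, between a lowest of 7 and a highest of 303, and 326 of the 554 peaks (58.8%, Wilson 95% interval 54.7 to 62.9%) rested on 7 to 9 fragments. A further 199 had 10 to 19 fragments, 21 had 20 to 99 and 8 had 100 or more. The share with 7 to 9 fragments was 58.9% over all autosomal peaks, 48.6% at 0 to 1000 bp and 59.6% beyond 3000 bp. The fold enrichment, the pileup plus 1 over the background plus 1, had a median of 3.97 and reached 10 in 4 peaks. Background comes from IgG coverage near the peak, scaled to the HIF1α libraries, and cannot drop below a genome-wide floor. It was at that floor of 1.30 fragments in 297 peaks (53.6%), against 42.0% at 0 to 1000 bp, 49.7% beyond 3000 bp and 49.5% of all autosomal peaks. Peaks at the floor differ only through their pileup: wherever it lay, a peak with 11 fragments at the floor was enriched 5.22-fold with −log10 q at 3.88. The median −log10 q was 2.28. Counting error alone is wide at this depth, since a pileup of 10 has an exact Poisson 95% interval of 4.80 to 18.4 fragments.

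Pileups of 10 or more were less frequent at 1 to 3 kb than at 0 to 1000 bp taken as a whole, where the peaks within 500 bp of a TSS had the highest shares. A pileup of 10 or more was found in 228 of 554 peaks (41.2%) at 1 to 3 kb, against 264 of 514 (51.4%) at 0 to 1000 bp, where 41.1% of all autosomal peaks had it. The odds ratio was 0.66 (95% interval 0.516 to 0.850, two-sided Fisher's exact test p = 9.07e-04, Benjamini-Hochberg adjusted p = 0.00423 over 14 comparisons). The call was lost among peaks with −log10 q of at least 2 (0.778, Fisher's exact test, adjusted p = 0.409), on microchromosomes alone (0.684, adjusted p = 0.246) and on chromosomes 1 to 10 alone (0.657, adjusted p = 0.0551). Beyond 3000 bp the share was 40.4%, with an odds ratio of 1.03 for the 1 to 3 kb peaks (Fisher's exact test, adjusted p = 0.719). At the higher threshold of 15 fragments the shares were 6.86% at 1 to 3 kb, 11.3% at 0 to 1000 bp and 9.89% beyond 3000 bp, so that the odds ratio against the distant peaks turned to 0.67 (Fisher's exact test, adjusted p = 0.0408). A −log10 q of 3 or more was reached by 153 peaks (27.6%) at 1 to 3 kb, against 32.3% at 0 to 1000 bp and 26.0% beyond 3000 bp, with 26.5% over all autosomal peaks. Neither difference passed Fisher's exact test (adjusted p = 0.253 and 0.526). These tests compare peaks of one pooled list, in which neighbouring peaks are not independent, and say nothing of the spread between cultures.

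The 1 to 3 kb peaks were also shorter than those at the core promoter. Their median length was 137 bp (95% interval 134 to 142), against 148.5 bp (144 to 152) at 0 to 1000 bp and 136 bp (135 to 138) beyond 3000 bp. A length of 150 bp or more was found in 205 of the 1 to 3 kb peaks (37.0%), against 49.4% at 0 to 1000 bp, and in 38.5% of all autosomal peaks. The odds ratio was 0.60 (95% interval 0.467 to 0.773, Fisher's exact test p = 4.46e-05, adjusted p = 3.12e-04). Against the peaks beyond 3000 bp, of which 37.8% reached 150 bp, it was 0.97 (Fisher's exact test, adjusted p = 0.719). Distances run from the peak edge and are 0 where a peak covers the TSS. Longer peaks are thus more likely to enter the 0 to 1000 bp class, and part of the length difference from it may be built in.

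The share of long peaks tended to rise with pileup, though not at each step, and the reason was not tested. The shares of 150 bp or more in the 1 to 3 kb peaks were 18.2% at a pileup of 7, 25.6% at 8, 37.9% at 9 and 35.4% at 10 fragments. At 0 to 1000 bp they were 27.8, 34.5, 47.7 and 46.1% at the same pileups, higher in each. At 11 fragments the shares were 51.5% at 1 to 3 kb and 53.1% at 0 to 1000 bp, at 12 to 14 they were 39.5% and 63.2%, and at 15 or more 81.6% and 81.0%. Stratified by pileup, in a comparison added after the data were seen, the odds ratio stayed at 0.66 (exact conditional Mantel-Haenszel test, p = 0.00161).

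Read along the distance axis, both shares were highest at the start site. Of the 79 peaks covering a TSS, 70.9% were at least 150 bp long and 63.3% had 10 or more fragments. Because longer peaks are more likely to cover a TSS, that length share is partly set by the distance measure and is not a separate result. The length share was 46.9% at 1 to 500 bp and 43.0% at 0.5 to 1 kb, then 43.5, 32.2, 37.0 and 34.4% over the 4 bins of 500 bp from 1 to 3 kb, and 36.8% at 3 to 10 kb. The innermost 1 to 3 kb bin was thus nearer in value to the outer core promoter than to the next bin out. The pileup share was 54.9% at 1 to 500 bp and 39.2% at 0.5 to 1 kb, then 46.0, 34.9, 42.9 and 40.8% over the same 4 bins and 39.0% at 3 to 10 kb. The peaks at 0.5 to 1 kb thus did not have a higher pileup share than the 41.2% of the 1 to 3 kb peaks. With the TSS-covering peaks left out of the 0 to 1000 bp class, an alternative added after the data were seen, the odds ratios were 0.70 for length and 0.72 for pileup (Fisher's exact tests, adjusted p = 0.0422 for each).

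**Figure D2:**
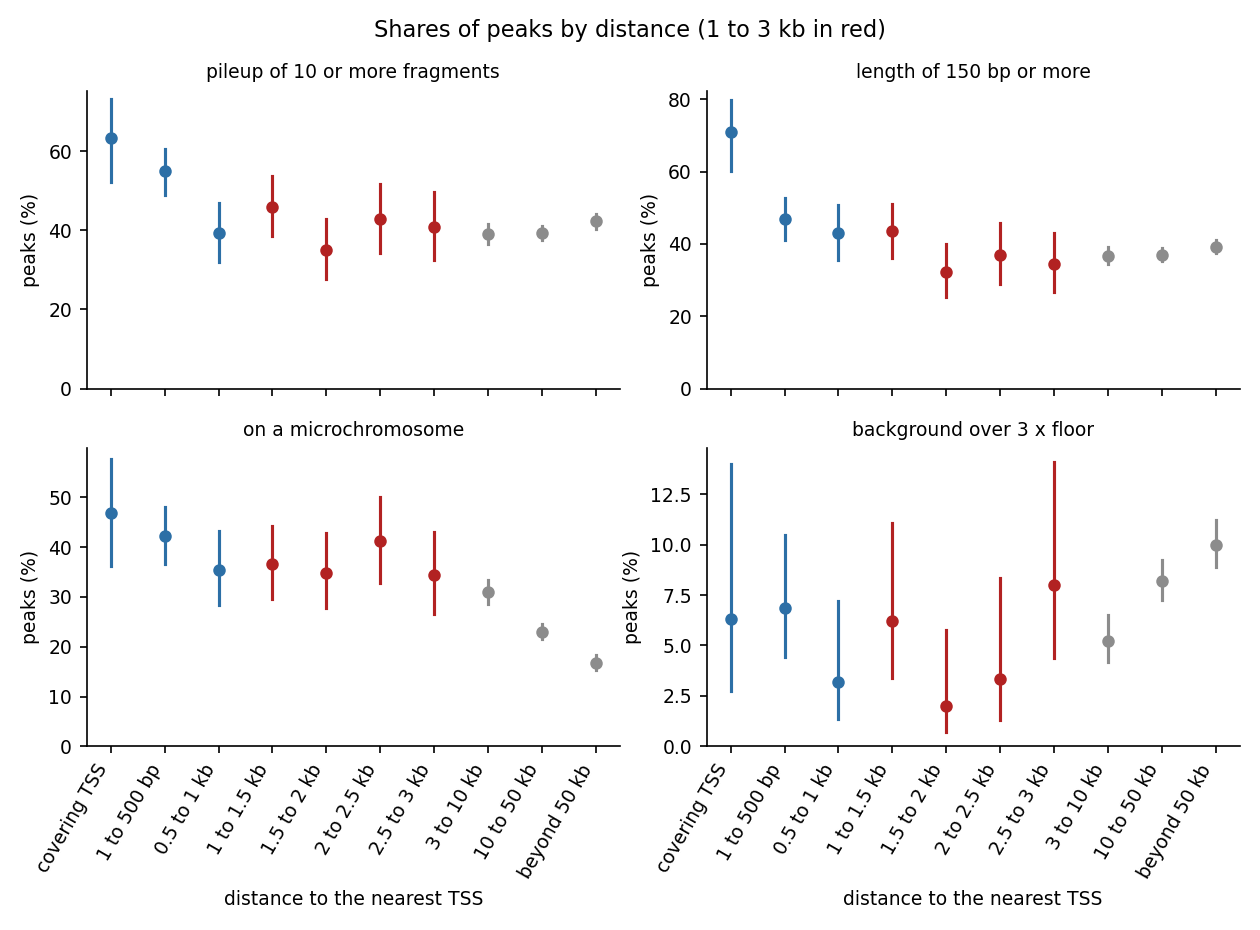
Share of autosomal peaks (percent, vertical axes) with 10 or more fragments, with a length of 150 bp or more, on a microchromosome and with high background, by distance to the nearest TSS; points are shares and lines Wilson 95% intervals. The 1 to 3 kb bins in red lie below the TSS-covering peaks in the length panel (32.2 to 43.5%, against 70.9%), and in the microchromosome panel all 4 lie above the 16.8% found beyond 50 kb. Longer peaks are more likely to cover a TSS, so the first point of the length panel is partly set by the distance measure.

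The 1 to 3 kb peaks were more often on small chromosomes than the distant peaks. Chicken microchromosomes, taken here as chromosomes 11 and above, are small and gene-dense. They held 203 of the 1 to 3 kb peaks (36.6%), against 40.9% of the peaks at 0 to 1000 bp, 22.4% of those beyond 3000 bp and 24.5% of all autosomal peaks. The odds ratio against the distant peaks was 2.01 (95% interval 1.67 to 2.42, Fisher's exact test p = 2.74e-13, adjusted p = 3.83e-12), and against the 0 to 1000 bp peaks it was 0.84 (adjusted p = 0.333). The share declined with distance among the distant peaks, from 31.0% at 3 to 10 kb through 23.0% at 10 to 50 kb to 16.8% beyond 50 kb. The density of start sites was not measured, and its part in this difference was not tested.

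Seen from the chromosomes, peaks at 1 to 3 kb made up 257 of 4917 peaks (5.23%) on chromosomes 1 to 5, 94 of 1224 (7.68%) on chromosomes 6 to 10 and 203 of 1992 (10.2%) on chromosomes 11 and above. Chromosome 1 held the most, 79 of 1582 peaks, and chromosome 2 gave the lowest share, 42 of 1128 (3.72%). Among chromosomes with more than 50 peaks the share was highest on chromosome 22, with 13 of 59 (22.0%, Wilson 95% interval 13.4 to 34.1%). The median pileup of these peaks was 8 to 10.5 fragments on most chromosomes but 190 on chromosome 16, where there were only 3 peaks. Peak lengths had a median of 144 bp on the microchromosomes, against 136 bp on chromosomes 1 to 5 and 130 bp on chromosomes 6 to 10.

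**Figure D3:**
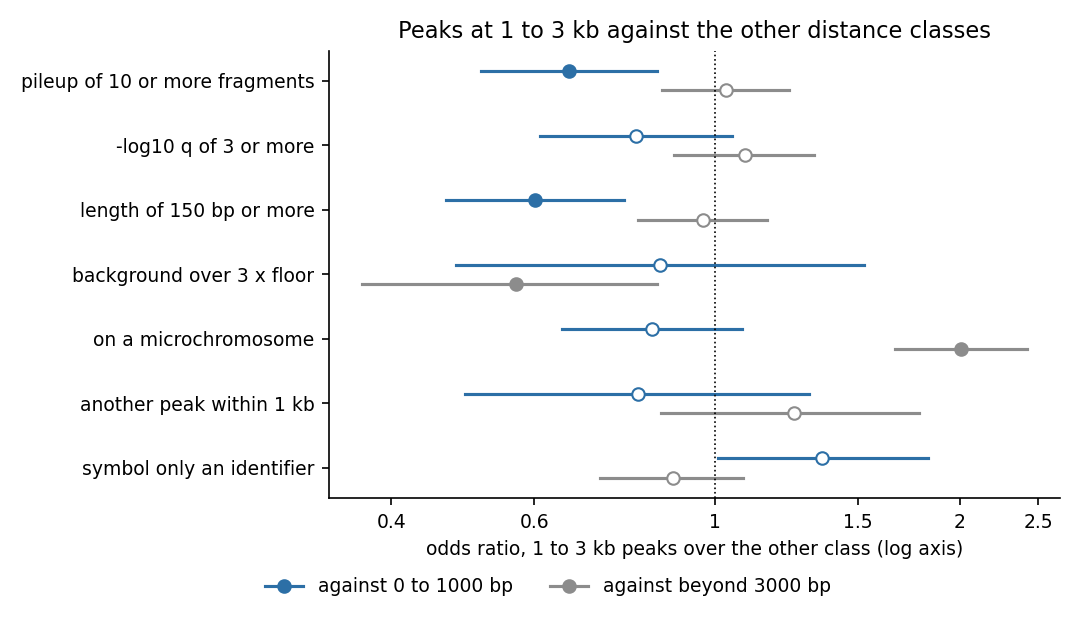
Odds ratios (horizontal log axis) of the 1 to 3 kb peaks over autosomal peaks at 0 to 1000 bp (blue) and beyond 3000 bp (grey) for 7 measures, with 95% intervals; filled points had an adjusted p under the threshold of 0.05 (Fisher's exact tests, Benjamini-Hochberg). Pileup and length stand apart from the 0 to 1000 bp peaks (0.66 and 0.60), and background and microchromosomes from the distant peaks (0.57 and 2.01).

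Some peaks stood on a background that was itself high. A background over 3 times the floor, that is over 3.89 fragments, was found in 27 of the 1 to 3 kb peaks (4.87%), against 5.64% at 0 to 1000 bp and 8.25% beyond 3000 bp, with 7.86% over all autosomal peaks. The odds ratio against the distant peaks was 0.57 (95% interval 0.368 to 0.848, Fisher's exact test p = 0.00338, adjusted p = 0.0118). Among the distant peaks the share was 5.22% at 3 to 10 kb, 8.20% at 10 to 50 kb and 10.0% beyond 50 kb, so that the nearest of them had a share close to that at 1 to 3 kb. On the microchromosomes the shares were 6.90% at 1 to 3 kb and 20.1% beyond 3000 bp (odds ratio 0.29), and on chromosomes 1 to 10 they were 3.70% and 4.83% (odds ratio 0.76, Fisher's exact test, adjusted p = 0.582). Zelen's exact test of the difference between these odds ratios, added after the data were seen, gave p = 0.0239, or 0.144 when adjusted over 12 such tests, so the difference did not pass. The call held on microchromosomes alone (Fisher's exact test, adjusted p = 9.32e-06). Stratified by chromosome, the odds ratio was 0.34 (exact conditional Mantel-Haenszel test, adjusted p = 2.51e-06). The call was lost when 1 peak was kept per TSS (odds ratio 0.63, Fisher's exact test, adjusted p = 0.178). Leaving out peaks of fold enrichment under 3 gave 0.81 (Fisher's exact test, adjusted p = 0.776). High-background shares were then 1.32% at 1 to 3 kb and 1.63% beyond 3000 bp. Because background was computed from the fold enrichment, that filter itself removes most high-background peaks and cannot test the difference.

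These 27 peaks held most of the highest pileups, of which background is a part. Their pileups ran between 15 and 303 fragments with a median of 45, their backgrounds between 4.31 and 177, and their fold enrichments between 1.34 and 5.46. They made up 7 of the 8 peaks with 100 or more fragments, 9 of the 20 highest by −log10 q, and all 8 with a fold enrichment under 2. The threshold for calling a peak sets part of this. Over a high background, a peak needs a high pileup to be called. At lower backgrounds, a fold enrichment under 2 would mean too few fragments for a call. For 16 of the 27 (59.3%) the nearest TSS had only an Ensembl identifier or a small RNA family as its symbol. That share was 25.8% over the 1 to 3 kb peaks and 27.5% over all autosomal peaks. It was not computed for high-background peaks at other distances. Without these 27, 5 of the other 527 peaks had 20 fragments or more.

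**Figure D4:**
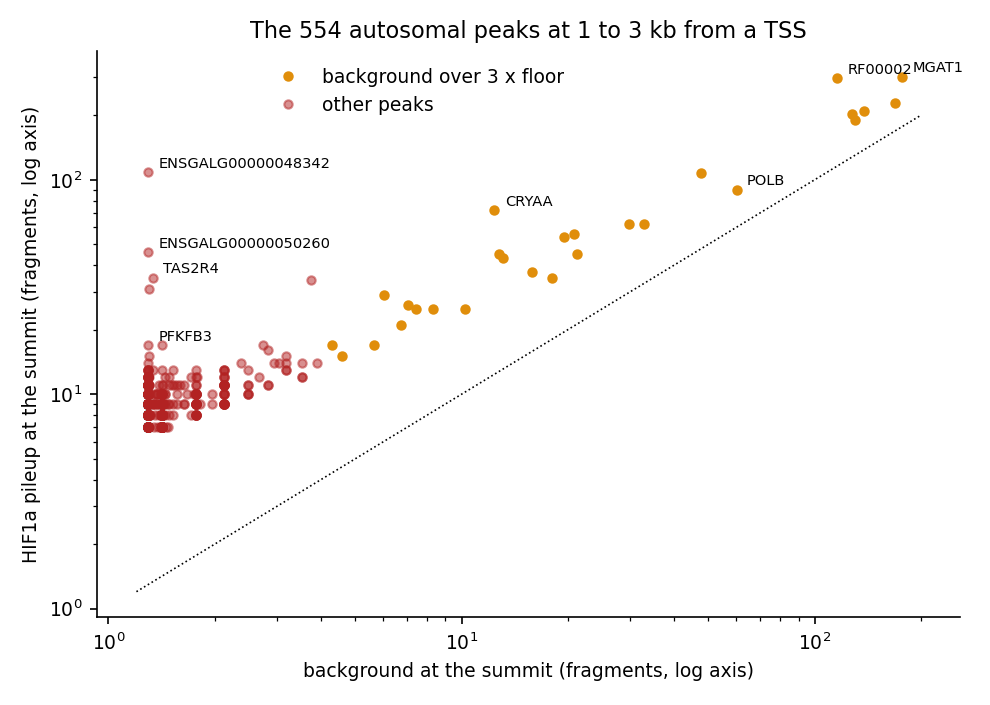
HIF1α pileup (fragments at the summit, vertical log axis) against background (fragments, horizontal log axis) for the 554 peaks at 1 to 3 kb; orange points have a background over 3 times the floor, and the dotted line marks equality. Most points lie at 7 to 9 fragments over a background near 1.30, whereas MGAT1 reaches 303 fragments over a background of 177.

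The strongest peak without such background was 1611 bp from the TSS of ENSGALG00000048342 on chromosome 22 (chr22:3760189-3760680, galGal6). It had 109 fragments (exact Poisson 95% interval 89.5 to 132) over the floor of 1.30, and was enriched 47.9-fold, with −log10 q at 160. ENSGALG00000050260, also on chromosome 22, had 46 fragments at the floor and a fold enrichment of 20.5, at 1479 bp. Neither gene had another autosomal peak. TAS2R4, named for a bitter taste receptor, had 35 fragments over 1.34 at 2519 bp (fold enrichment 15.4). ENSGALG00000037826 on chromosome 33 had 31 fragments over 1.30 at 1140 bp (13.9) with a further peak of 13 fragments at 1597 bp and one of 11 at 22 bp. Below these 4, fold enrichments were under 8. ENSGALG00000053708 on chromosome 31 followed by −log10 q with 34 fragments over 3.75.

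HDAC1;LCK, which shares 1 row between a histone deacetylase and a lymphocyte tyrosine kinase, had 17 fragments over 1.42 at 1217 bp (fold enrichment 7.45). MAST1, a microtubule-associated kinase, had 15 at 1355 bp (6.96). All of these were strong for the class, since only 11 of the 527 peaks without high background had 15 fragments or more.

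The high-background peaks near the top of the list were of another kind. RF00002, the Rfam family of 5.8S ribosomal RNA, had peaks at 2923 and 2552 bp on chromosome 16 with 298 fragments over 116 and 190 over 130, so that the fold enrichments were 2.56 and 1.46. MGAT1, a Golgi glycosyltransferase, had the longest of the 1 to 3 kb peaks (906 bp), with 303 fragments over 177 at 1362 bp and 227 over 169 at 2021 bp. Its TSS was the nearest one for 28 listed peaks, and all 28 had high background. ENSGALG00000054689 (679 bp long), ENSGALG00000053954 (626 bp) and ENSGALG00000049272 (515 bp) were also among the 5 longest, with 210 fragments over 138, 107 over 47.8 and 203 over 127. ENSGALG00000054342 had 45 over 12.7, with a peak at 891 bp of 36 over 13.8, and ENSGALG00000053140 had 43 over 13.1, with one at 218 bp of 28 over 13.4. The remaining long peak, 546 bp at NUS1, a subunit of the enzyme for dolichol synthesis, had 11 fragments over the floor.

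The lens genes included one of these strong peaks. CRYAA, which encodes αA-crystallin, a chaperone and a major structural protein of the lens, had a peak 1170 bp from its TSS (chr1:111070425-111070601) with 72 fragments (exact Poisson 95% interval 56.3 to 90.7) over a background of 12.4, so that it was enriched 5.46-fold with −log10 q at 26.3. Unlike the repeated peaks at MGAT1, it stood alone, with no other listed peak within 221902 bp. How far its background reflects recovery of that site by both antibodies was not tested.

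In all, 6 of 66 lens genes in a list of structural and cataract genes had a 1 to 3 kb peak (9.09%), against 2.80% of the 14357 protein-coding genes with a symbol. The lists were chosen with earlier results of these data known, so these shares are descriptions. ASL1 and ASL2, the δ-crystallin genes of birds, shared 3 peaks at a TSS listed with GUSB, at 1278, 1530 and 2945 bp with 7, 11 and 12 fragments, the last over a background of 3.54. Both genes count among the 6, although they share this 1 TSS. JAG1, a Notch ligand that guides fibre cell differentiation, had 8 at 1029 bp, and MAFK, a small MAF transcription factor, had 7 at 1468 bp. Of these named genes, CRYAA alone had a peak above 12 fragments.

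Known HIF targets and glycolytic genes were among those with a peak. Of 50 genes in the list of HIF targets and oxygen sensing, 4 had a 1 to 3 kb peak (8%), against 5 with a peak at 0 to 1000 bp (10%). Over all protein-coding genes these shares were 2.80% and 2.83%. None of the 4 had both. ANAPC16;DDIT4, where DDIT4 is a hypoxia-induced inhibitor of mTORC1, had peaks at 2468 and 2115 bp with 16 fragments over 2.83 and 9 over 2.12, and another at 3118 bp with 14 over 1.42. TET2, a 5-methylcytosine dioxygenase that needs oxygen, had 11 fragments over the floor at 1909 bp. CITED2, which competes with HIF1α for the coactivators CBP and p300, had 10 over the floor at 2249 bp. P4HA2, a collagen prolyl hydroxylase, had 8 over 1.31 at 2511 bp.

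Of 49 genes for glucose uptake, glycolysis and lactate, 3 had a 1 to 3 kb peak (6.12%), against 9 with a peak at 0 to 1000 bp (18.4%), where the shares over all protein-coding genes were again 2.80% and 2.83%. PFKFB3, which makes the allosteric activator of phosphofructokinase, had 17 fragments (exact Poisson 95% interval 9.90 to 27.2) over the floor at 1002 bp (chr1:4156395-4156561), enriched 7.84-fold with −log10 q at 9.87. The same TSS had a peak of 16 fragments over 1.77 at 381 bp, one of 14 at 3189 bp and others at 22629 and 55651 bp with 16 and 9. Its signal was thus of like size inside and outside the 1000 bp limit. LDHA, which converts pyruvate to lactate, had 10 fragments over the floor at 1592 bp and a peak covering its TSS with 13 over 2.48. SLC16A3, which encodes the lactate exporter MCT4, had 9 over 1.82 at 1276 bp and a larger peak, 22 over 3.54, just beyond the limit at 3159 bp.

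The densest cluster was at gga-mir-210a, the chicken form of miR-210, known in mammals as a microRNA induced by HIF1α. It and the ASL1 site were the only start sites nearest to 3 of the peaks. The 3 peaks lay at 1172, 1784 and 2129 bp on chromosome 5 (chr5:16092915-16093120, chr5:16092279-16092508 and chr5:16091977-16092163) with 12, 11 and 10 fragments, all over the floor of 1.30, and with fold enrichments of 5.66, 5.22 and 4.79. Another peak at 380 bp had 33 fragments over a background of 5.31. All 4 lay on the same side of the TSS. Other microRNA genes had single peaks, and 25 of the 554 rows held a microRNA symbol in all. That share was not computed over all autosomal peaks. Rows with only small RNA symbols, microRNAs or Rfam families, were 5.60% of the 1 to 3 kb peaks and 6.49% of all autosomal peaks. The strongest peak of the other microRNA genes was at gga-mir-125b-2, with 13 fragments over 1.52 at 1653 bp.

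**Figure D5:**
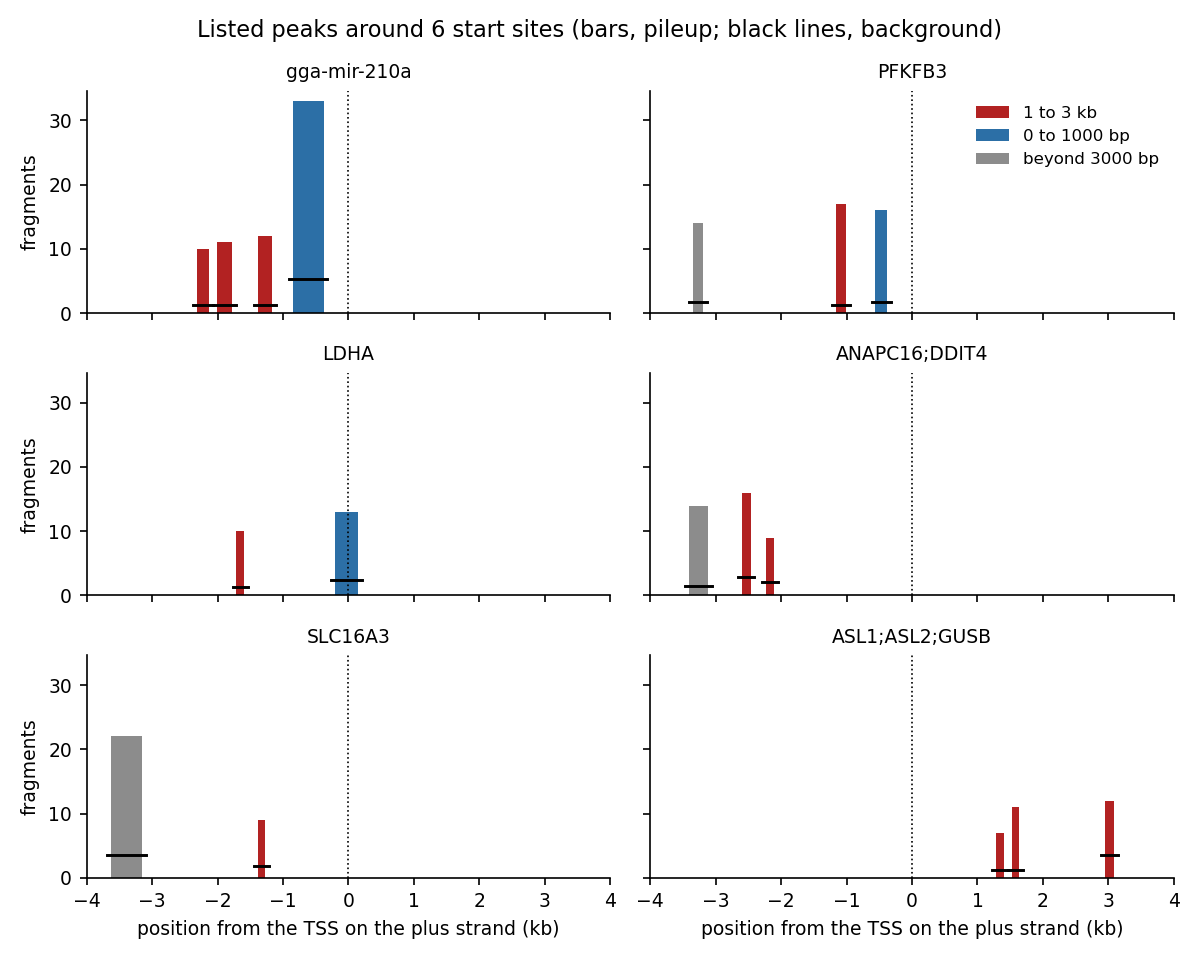
Listed peaks around 6 start sites, by position from the TSS on the plus strand (kb, horizontal axis); bars show the pileup (fragments, vertical axis) over the width of each peak, black lines the background, and the dotted line the TSS. The 3 red peaks of gga-mir-210a have 12, 11 and 10 fragments beside a core peak of 33, and PFKFB3 has 17 beside 16.

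Where a TSS had more than 1 peak, its position and hence the side of each peak could be worked out from the peak edges and distances. This was possible for 141 start sites with 162 of the peaks. At 19 start sites there were 2 or more 1 to 3 kb peaks, all on 1 side in 11 and on both sides in 8. The ASL1 and ANAPC16;DDIT4 peaks each lay on 1 side, as did the pair at DPP9, a dipeptidyl peptidase, whereas COQ3, a coenzyme Q methyltransferase, had 1 peak of 7 fragments on each side, at 2159 and 2518 bp. The strand of the genes was not used here, so upstream and downstream cannot be told apart.

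The 554 peaks belonged to 533 start sites, 514 of them with 1 such peak. For 392 (73.6%) it was the only autosomal peak of that TSS. The matching share was not computed for other start sites, so this does not set these start sites apart. Of the 533 start sites, 22 also had a peak at 0 to 1000 bp, which is 4.13% of them and 4.41% of the 499 start sites with a core peak, and 116 had one beyond 3000 bp (21.8% of the 533 and 2.66% of 4365). Of the 402 protein-coding genes with a 1 to 3 kb peak, 382 had none at 0 to 1000 bp, where 2.83% of all 14357 protein-coding genes had a peak at 0 to 1000 bp and 21.0% had one beyond 3000 bp. Sites with both, beside PFKFB3, LDHA, MGAT1 and gga-mir-210a, included DCLK2, a doublecortin-like kinase, with 12 fragments at 1535 bp and 10 at 512 bp.

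Few of the peaks had a close neighbour. Another listed peak within 1 kb was found for 37 of the 1 to 3 kb peaks (6.68%), against 8.17% at 0 to 1000 bp and 5.41% beyond 3000 bp, with 5.67% over all autosomal peaks (Fisher's exact test, adjusted p = 0.526 and 0.364). Among peaks without high background the shares were 5.50% at 1 to 3 kb and 2.5% beyond 3000 bp, and the odds ratio against the distant peaks became 2.27 (Fisher's exact test, adjusted p = 9.23e-04). With peaks of fold enrichment under 3 left out it was 2.23 (Fisher's exact test, adjusted p = 0.00189). That filter keeps nearly the same peaks (532, against 527, at 1 to 3 kb) and is not a separate check. Both peaks of a close pair are counted, so the counts are not independent. These filtered comparisons were not stratified by chromosome. With 1 peak per TSS and neither filter, the odds ratio against the distant peaks was 1.34 (Fisher's exact test, adjusted p = 0.386). Without a filter, that ratio was 0.81 on microchromosomes and 1.36 on chromosomes 1 to 10. Stratified by chromosome it was 0.91 (exact conditional Mantel-Haenszel test, adjusted p = 0.706). Symbols that were only an identifier or a small RNA family belonged to 143 of the 1 to 3 kb peaks (25.8%), against 20.4% at 0 to 1000 bp and 28.2% beyond 3000 bp, with 27.5% over all autosomal peaks. The odds ratios of 1.36 and 0.89 did not pass Fisher's exact test (adjusted p = 0.118 and 0.402).

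The other gene groups are to be read against the share of 2.80% over all protein-coding genes. The chromatin and DNA modification list had 9 of 169 genes (5.33%), led in −log10 q by HDAC1. It was followed at 11 or 10 fragments by SIRT5, a mitochondrial deacylase, TET2 and SMARCD2, a subunit of the SWI/SNF remodeller. KMT2E had 14 fragments over a background of 3.045, with a lower −log10 q. The ubiquitin and proteasome list had 18 of 433 (4.16%), led in −log10 q by FBXO28 with 13 fragments at 2784 bp, then ANAPC16, USP33 and TRIM67. ANAPC16 and UBE2D3 had more fragments, 16 and 14, over higher backgrounds of 2.83 and 3.89. For growth factor and morphogen signalling the count was 8 of 257 (3.11%). FGFR1, a receptor for the growth factors that drive lens fibre formation, shared a row of 11 fragments at 1271 bp with PLPP5 and NSD3. DUSP1, a MAP kinase phosphatase, and IGF1R, the IGF receptor, had 10 each, in rows shared with gga-mir-3523 and FAM169B. FLT1, a VEGF receptor, had 14 over a background of 3.18.

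Developmental transcription factors had 7 of 272 genes (2.57%), among them ID2, an inhibitor of bHLH factors, and PITX1 with 11 fragments each over the floor at 1734 and 2425 bp, and LHX9 with 8. The row named FOXP3 in the list, a symbol that the reference table gives as an older name of FOXP1, had 11 and 9 fragments at 2352 and 1869 bp. Extracellular matrix and adhesion genes had 4 of 294 (1.36%): COL18A1 with 12 fragments, ACAN with 10, and NID1 and UNC5D with 9 each. Solute carriers had 11 of 315 (3.49%), led in −log10 q by SLC13A1 with 12 and SLC25A24 with 11, in rows shared with ATP6AP1 and FAM102B. SLC30A9, a zinc transporter in a row shared with TMEM33, and SLC4A7, a bicarbonate transporter, followed with 9 and 11. Ion channels and aquaporins had 6 of 221 (2.71%), among them TRPM1 (in a row shared with MTMR10), KCNK2 and KCNAB2 with 11, 10 and 9 fragments. The 6 include the row named CATSPER2, which the reference table gives under another gene's older names.

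Mitochondrial genes had 5 of 287 (1.74%), against 13 (4.53%) with a peak at 0 to 1000 bp. Over all protein-coding genes the share at 0 to 1000 bp was 2.83%. The 5 at 1 to 3 kb were SLC25A24, VDAC3, an outer membrane channel, COX7A2, a subunit of cytochrome c oxidase, ATP5S, and MRPS24. The 15 fragments of MRPS24 stood over a high background of 4.60. Cytosolic ribosomal proteins and translation factors had 3 of 141 (2.13%), namely EIF4A2, RPL27A and RPL37A with 8, 8 and 9 fragments. EIF4A2 and RPL27A shared their rows with small RNA families. Nuclear receptors and clock genes had 2 of 66 (3.03%), ESRRB, an orphan receptor, and CRY1, a clock repressor, with 9 fragments each. Autophagy and mitophagy genes had 1 of 49 (2.04%), ATG4B, a protease that processes ATG8 proteins, with 8 fragments at 1746 bp.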

How the data were processed

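CUT&RUN was carried out with 2 HIF1α and 2 IgG libraries, grouped by sample title. Per the study's methods and the submitters' processing notes, the authors trimmed reads with Trimmomatic, aligned them to galGal6 (Ensembl 96) with Bowtie2, kept fragments under 120 bp with SAMtools, discarded mitochondrial reads and those in low-complexity regions, and ran MACS2 on the pooled HIF1α against pooled IgG libraries at q of 0.05. Tool versions were not given in the sources used here. The authors deposited the pileup as a signal in unscaled fragments, the fold enrichment as a ratio to background, and −log10 p and −log10 q from MACS2. Recomputed −log10 p values matched the deposited ones within 0.00165 at 8369 peaks. The depth of each library is unknown. No column held per-sample values (0 columns).

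Background was computed as the pileup plus 1, over the fold enrichment, minus 1. Shares were compared by two-sided Fisher's exact tests with Benjamini-Hochberg adjustment over 14 comparisons, checked on simulated data, and by Zelen's exact test for 2 strata (Python 3.11.15, SciPy 1.17.1) and by exact conditional Mantel-Haenszel tests (R 4.3.3). Alternatives were stricter −log10 q and fold thresholds, removal of high-background peaks, 1 peak per TSS, merging within 1 kb, chromosome subsets, narrower distances and higher thresholds. A comparison with open chromatin was planned and not analysed here, and the galGal6 sequence was not used here, so no peak sequence is shown. Of 419 gene symbols other than identifiers, 95.9% matched the RefSeq table of GRCg7b, used for names only.

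The regions and gene lists were chosen with earlier results of these data known. Peaks were named by rule: the 12 peaks with the highest −log10 q, the 8 most enriched, the 5 longest, the 3 nearest each distance limit, start sites with 3 or more peaks, the 6 strongest with a core peak too, all HIF target and glycolytic genes, and all genes of other lists with up to 5 or the 4 highest by −log10 q. gga-mir-125b-2, DPP9, COQ3, MAFK, JAG1, KMT2E, UBE2D3 and the CATSPER2 row were named outside this rule, after the values were seen. Not every item that the rule selects is reported here.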

Additional observations from a re-analysis of the deposited data

How the results depend on the processing

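Odds ratios below are of the 1 to 3 kb peaks, and "core" stands for the 0 to 1000 bp peaks and "distant" for those beyond 3000 bp. The larger share on microchromosomes against distant peaks kept its direction and passed the test under all 9 alternatives that could give it (1.94 to 2.32). The smaller share of peaks of 150 bp or more against core passed in 13 of 15 alternatives. It was 0.653 at −log10 q of at least 3 and 0.630 on microchromosomes alone, neither past the threshold. Longer peaks are more likely to fall in the core class, because distance runs from the peak edge. The smaller pileup share against core passed in 10 of 13 alternatives, among them stratification by chromosome (0.64). It was not past the threshold at −log10 q of at least 2 (0.778), on microchromosomes (0.684) or on chromosomes 1 to 10 (0.657). That −log10 q filter removes most peaks below 10 fragments and cannot test the pileup share. The smaller high-background share against distant passed in 6 of 12 alternatives, among them stratification by chromosome (0.338). It was not past the threshold at −log10 q of at least 2 (0.615) or 3 (0.501) or at fold of at least 3 (0.806). Nor was it with 1 peak per TSS (0.627), merged peaks (0.622) or chromosomes 1 to 10 alone (0.758). Of these, the fold filter itself removes most high-background peaks and cannot test that share. Results that newly passed were close neighbours against distant at fold of at least 3 (2.23) and without high background (2.27), and −log10 q against core at the threshold of 5 (0.539). The fold and background filters keep nearly the same peaks. Direction turned round only for ratios that had not passed. Pileup against distant turned with 1 peak per TSS (0.856), microchromosomes (0.824), members at 1.5 to 3 kb (0.951), the 15-fragment threshold (0.671, the one past the threshold) and stratification by chromosome (0.947). Length against distant turned at −log10 q of at least 2 (1.05), fold of at least 3 (1.03), without high background (1.01) and at 1 to 2 kb (1.01). High background against core turned at −log10 q of at least 2 (1.17) or 3 (1.09), on microchromosomes (1.65) and at 5 times the floor (1.35). −log10 q against distant turned with 1 peak per TSS (0.835), at 1.5 to 3 kb (1.00) and at the threshold of 5 (0.838). On microchromosomes, close neighbours turned against core (1.62) and distant (0.814), and against distant also when stratified by chromosome (0.913). Identifier symbols against distant turned at a −log10 q of at least 3 (1.10). Peaks at 1 to 3 kb numbered 314 at −log10 q of at least 2 and 153 at 3, which follows from fewer peaks passing. The cause of the other changes was not tested. No paired analysis was possible because the peaks were called on pooled libraries and no column carries a replicate number, and no library could be left out for the same reason. The alternatives for open chromatin were not run. With 7 to 9 fragments in 326 of the 554 peaks, depth limits what single peaks can show.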
